A study of Mus musculus with 18 samples.

Results

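The insulin-like growth factor 1 (IGF1) axis was followed in mouse heart through 8 genes: the ligand Igf1, the receptors Igf1r and Igf2r, and the binding proteins Igfbp2, Igfbp3, Igfbp4, Igfbp5 and Igfbp6. They were found on the array by gene symbol. Of the 8 genes, 7 had a probe set (the group of oligonucleotides that reports 1 transcript) annotated to them alone, and the 8 genes had 12 probe sets among the 12422 on the array that are not controls. Igfbp5 was reached only by a probe set annotated to both Tmem119 and Igfbp5. The platform annotation does not assign it to 1 of them alone, and it is given throughout under both symbols. The samples were hearts of FVB mice and of mice with a cardiac-specific tumour necrosis factor alpha (TNF-alpha) transgene, described in the labels as a heart failure model, with 1 array of total RNA per sample. FVB females (2 distinct arrays), FVB males (3), transgenic females (3) and transgenic males (3) were 3 weeks old. The older arrays, all transgenic, were of males at 13 weeks (3) and females at 40 weeks (3). No FVB heart was older than 3 weeks, and each later age holds 1 sex, so the genotype was compared only at 3 weeks and ageing only within transgenic hearts. The labels do not say which cells of the heart the transgene's promoter drives, nor whether the samples of a group were separate animals. The p-values therefore reflect only how far these samples spread, and that spread may be technical.

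IGF1 is a growth factor made by the liver under growth hormone and also within many tissues, the heart and its macrophages and fibroblasts included. It acts through IGF1R, a tyrosine kinase that signals through the IRS adaptors to PI3K and AKT and through SHC and RAS to the MAP kinases, and in cardiac muscle it is known for promoting growth and survival of the myocyte. IGF2R, the mannose 6-phosphate receptor, takes up and clears IGF2 and sorts lysosomal enzymes. The binding proteins hold IGFs in the extracellular space and carry them in the blood. IGFBP3 is the main carrier in serum, IGFBP5 binds matrix, IGFBP6 prefers IGF2, and IGFBP4 is best known as an inhibitor that is cut by a protease.

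Upstream sequence is shown for the members that were bright enough for the main test and differed in it between transgenic and FVB hearts at 3 weeks, and for Igfbp5. These are the 250 bases before the RefSeq transcription start (build GRCm38.p6), 5′ to 3′ on the gene's strand, and capitals mark motif matches. The Igf1 stretch lies at chr10:87860861-87861110 (plus strand), Igfbp3 at chr11:7213924-7214173 (minus strand), Igfbp5 at chr1:72874866-72875115 (minus strand) and Igfbp6 at chr15:102143936-102144185 (plus strand).
Igf1: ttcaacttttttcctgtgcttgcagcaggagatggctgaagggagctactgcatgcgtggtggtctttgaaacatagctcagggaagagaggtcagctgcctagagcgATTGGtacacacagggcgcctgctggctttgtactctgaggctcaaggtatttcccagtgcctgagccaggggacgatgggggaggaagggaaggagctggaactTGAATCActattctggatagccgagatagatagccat
Igfbp3: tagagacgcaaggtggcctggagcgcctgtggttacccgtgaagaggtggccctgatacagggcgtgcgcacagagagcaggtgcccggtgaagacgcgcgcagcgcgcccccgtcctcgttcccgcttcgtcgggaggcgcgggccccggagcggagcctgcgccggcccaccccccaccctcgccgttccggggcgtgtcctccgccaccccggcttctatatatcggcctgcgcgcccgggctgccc
Igfbp5: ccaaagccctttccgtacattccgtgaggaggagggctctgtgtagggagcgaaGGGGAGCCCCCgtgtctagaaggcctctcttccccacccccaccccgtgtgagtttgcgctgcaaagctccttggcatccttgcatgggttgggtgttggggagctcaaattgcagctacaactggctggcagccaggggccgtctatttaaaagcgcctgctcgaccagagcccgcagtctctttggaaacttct
Igfbp6: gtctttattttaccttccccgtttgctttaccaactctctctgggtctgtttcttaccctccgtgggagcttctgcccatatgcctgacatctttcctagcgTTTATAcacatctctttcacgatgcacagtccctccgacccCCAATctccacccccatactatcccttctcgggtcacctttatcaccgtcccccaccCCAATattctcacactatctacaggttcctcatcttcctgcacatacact

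The motifs searched on both strands were GGGCGG (the GC box), CCAAT (the CCAAT box) and TATAAA (the TATA box). TGANTCA (an AP-1-like site, with any base at its centre), TTCNNNGAA (a STAT site) and the NF-kB consensus were searched in the same way. Igf1 held a CCAAT box on the minus strand at -142 to -138, counted from the start. It also held an AP-1-like match, TGAATCA, at -37 to -31. Igfbp6 held CCAAT boxes at -107 to -103 and at -50 to -46, and a TATA box on the minus strand at -148 to -143. Igfbp3, with a GC content of 73.2% against a median of 52.4% over all promoters of this length, held no match to any of them. Igfbp5 held overlapping NF-kB matches at -196 to -187 and -195 to -186. Over the 9 start sites of the 8 genes, the GC box was found in 3, the CCAAT box in 2 and the TATA box in 2. The AP-1-like site was found in 2, NF-kB in 1 and the STAT site in 0. Of 32851 RefSeq promoters, 32.7% hold the GC box, 33.8% the CCAAT box and 12.4% the TATA box. The AP-1-like site is held by 6.75% of them, NF-kB by 7.25% and the STAT site by 7.02%. In the genome Igfbp2 and Igfbp5 are neighbours on chromosome 1, and Igfbp3 lies beside Igfbp1 on chromosome 11.

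Some arrays limit these comparisons. FVB female replicates 1 and 2 hold identical values and were counted as 1 sample, called replicate 1. That array stood apart from the others, with a Spearman correlation of 0.767 to 0.850 with every other array and 7.33% of its probe sets at the floor, against 23.7% to 28.3% on the rest. FVB male replicates 1 and 2 carried Xist, the transcript of the inactive X chromosome, at signals of 1380.6 and 2705.7, against 5.9 in FVB male replicate 3. The Y-linked Eif2s3y was at 298.7, 67.4 and 544.9 in FVB male replicates 1, 2 and 3. It was at 115.3 and 40.9 in FVB female replicates 1 and 3, and at 2.9 to 30.8 in transgenic females. The sex labels of FVB male replicates 1 and 2 are thus in doubt, that of FVB female replicate 1 is less clear, and results by sex are given with that limit. Tnf itself was at 12.5 to 124.9 on FVB arrays and at 5475.5 to 12082.3 on transgenic arrays, as the genotype labels say. The 3' to 5' signal ratio of Actb, a measure of RNA integrity, was 1.29 to 1.97 on FVB arrays, 1.12 to 1.44 on transgenic arrays of 3 weeks, 1.23 to 1.48 at 13 weeks and 1.39 to 1.77 at 40 weeks. Its part in the results was not tested. Leaving out either FVB female array leaves that group with 1 array, and leaving out FVB female replicate 1 with both male arrays that carried Xist leaves 1 array in each FVB group. Such values assume that the lone array varies like the other groups, which supply the spread.

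At 3 weeks the ligand's signal and that of Igfbp6 were lower in transgenic than in FVB hearts, and the signal of Igfbp3 was higher. Igf1 fell by 0.70 on the log2 scale (SE 0.22) and Igfbp6 by 0.97 (SE 0.25), while Igfbp3 rose by 0.85 (SE 0.25). The receptors Igf1r and Igf2r and the binding protein Igfbp4 did not pass the test. Each signal was set to a floor of 44.675 where it was lower and taken as log2, and limma was fitted to the 7453 brighter probe sets with Benjamini-Hochberg adjustment, a probe set being called at an adjusted p under 0.05. Of the 6 members tested, 1 was higher and 2 were lower. Among all probe sets tested, 46.6% were called, so the members' 3 of 6 is close to the background. The median log2 difference was -0.24 over the 6 members and -0.0065 over all probe sets. An unadjusted p under 0.05 was reached by 4 of the 6, and by 53.9% of all probe sets tested. The seventh gene, Igfbp2, lay below the brightness filter and is described from a fit without it.

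**Figure D1:**
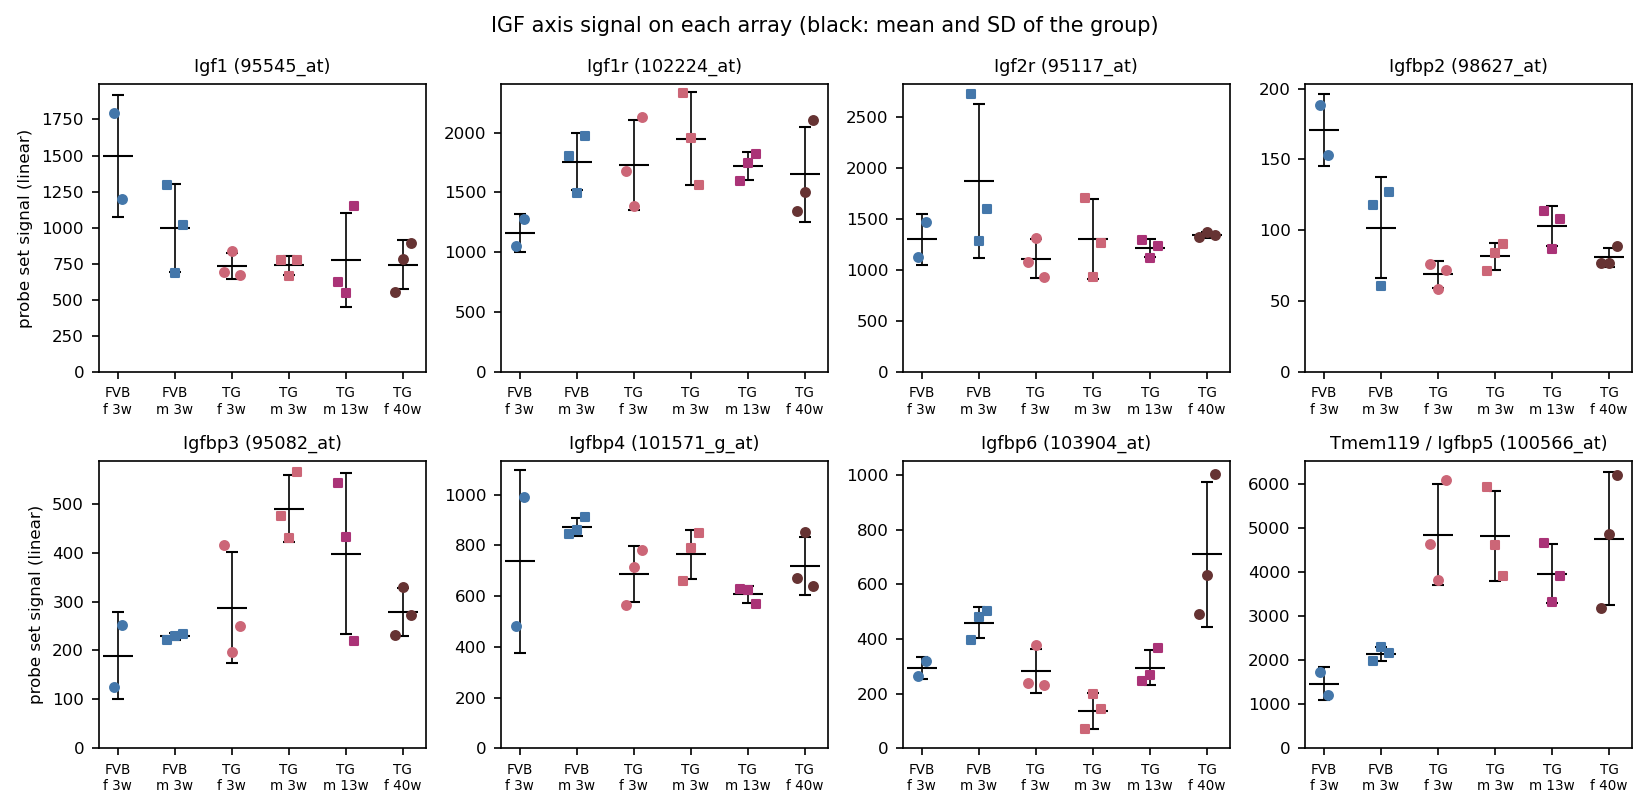
Signal on a linear scale from 0, 1 panel per gene (the last panel is the probe set annotated to both Tmem119 and Igfbp5). Points are arrays by genotype (FVB, TG transgenic), sex (f circles, m squares) and age in weeks (w), and black marks are the mean and SD of 2 or 3 arrays; Igfbp6 is lowest in the transgenic males of 3 weeks (69.5 to 198.9), and the last panel shows no overlap between FVB and transgenic arrays.

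Igf1, the ligand, was read by probe set 95545_at. Its signal was 1795.3 and 1198.5 in FVB females and 1293.4, 685.7 and 1015.9 in FVB males. In transgenic hearts of 3 weeks it was 693.9, 838.9 and 674.0 in females and 772.5, 664.7 and 775.2 in males. The transgenic arrays lay in a narrow band, and of the 5 FVB arrays the 4 highest lay above it, while FVB male replicate 2 lay inside it. FVB hearts had a mean of 1198 ± 407 (SD, n = 5), transgenic hearts one of 736.5 ± 69.5 (SD, n = 6), a log2 difference of -0.70 (95% interval -1.16 to -0.24, limma adjusted p = 0.0153). Without FVB female replicate 1 the difference was -0.55 with an adjusted p of 0.0808, and the call was lost.

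A second Igf1 probe set, 95546_g_at, gave another picture. Its signal was low, 24.2 to 171 on FVB arrays and 102.8 to 180.6 on transgenic arrays of 3 weeks, and it lay below the filter. In the fit without the filter its log2 difference was 0.55 (95% interval -0.28 to 1.37), opposite in sign to the brighter probe set, with a limma adjusted p of 0.269. Of the 5 FVB arrays, 2 lay below the floor for this probe set, at 24.2 and 25.1, and none of the transgenic arrays did. The other FVB arrays were at 171.0, 169.5 and 88.7. Averaged over both probe sets, the Igf1 difference was -0.08 with a limma adjusted p of 0.824. The 0.55 and the -0.08 both include the floored values. The fall of Igf1 thus rests on 1 of its 2 probe sets.

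At later ages Igf1 showed no called change from the younger transgenic hearts. Signals were 620.3, 549.7 and 1146.5 in males of 13 weeks and 556.4, 780.4 and 892.3 in females of 40 weeks. The highest of these, from 13 weeks, lay above 2 of the 5 FVB arrays, and the rest lay at or below 892.3. Compared with transgenic hearts of 3 weeks and the same sex, the log2 difference was -0.0087 (95% interval -0.62 to 0.60) at 13 weeks and -0.0060 (95% interval -0.62 to 0.61) at 40 weeks. In order of mean signal the groups ran from FVB females (1497 ± 422, n = 2) through FVB males (998.3 ± 304, n = 3) to the 4 transgenic groups, whose means of 735.6 to 772.2 differed by less than their SDs.

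Igf1r encodes the receptor through which IGF1 signals. Its signal was 1051.1 and 1274.7 in FVB females and 1802.9, 1497.6 and 1969.6 in FVB males. The transgenic arrays of 3 weeks gave 1676.4, 1385.7 and 2126.3 in females and 2334.1, 1951.0 and 1559.7 in males. All 6 lay above both FVB female arrays but overlapped the FVB males. The log2 difference was 0.35 (SE 0.16, 95% interval 0.0018 to 0.69, limma adjusted p = 0.0913) and was not called. At later ages its signal was 1593.6 to 1819.0 in males and 1342.7 to 2102.4 in females, with log2 differences from 3 weeks of -0.16 and -0.073.

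Igf2r, the clearance receptor, was at 1125.2 and 1476.0 in FVB females and at 2731.7, 1288.7 and 1602.3 in FVB males. Transgenic arrays of 3 weeks lay at 930.1 to 1711.8, overlapping all of these except FVB male replicate 1. Its log2 difference of -0.36 (95% interval -0.78 to 0.056, limma adjusted p = 0.144) was not called. The 3 transgenic females of 40 weeks were close together at 1345 ± 27.6 (SD, n = 3), and the age changes of -0.058 at 13 weeks and 0.29 at 40 weeks were not called.

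**Figure D2:**
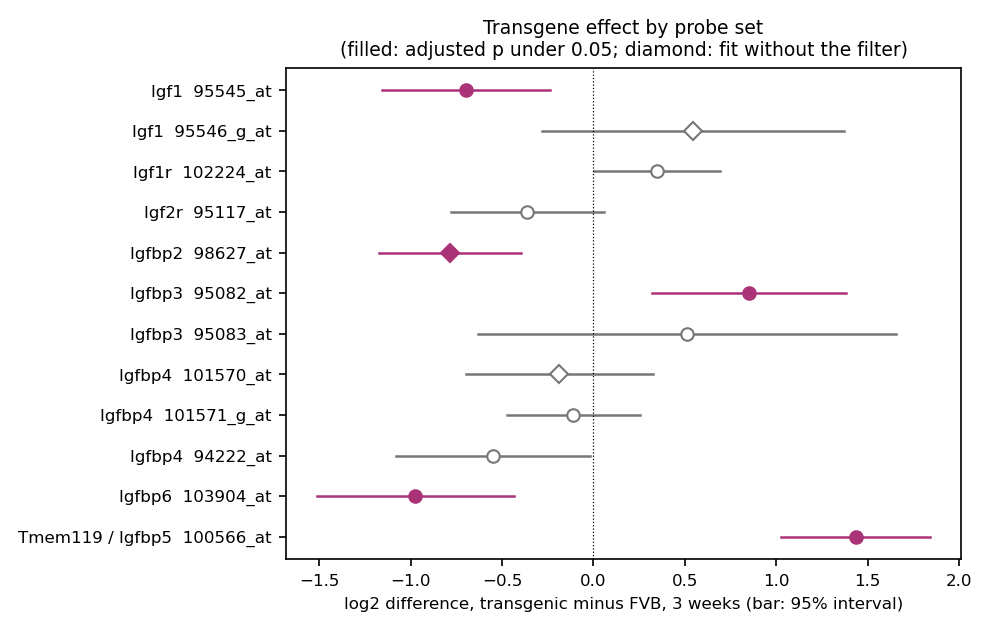
Log2 difference of transgenic minus FVB hearts at 3 weeks for each of the 12 probe sets (x axis), with its 95% interval. Filled marks have a limma adjusted p under 0.05 and diamonds come from the fit without the brightness filter; the 2 probe sets of Igf1 lie on opposite sides of 0, at -0.70 and 0.55.

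Igfbp3, the carrier, was higher in transgenic hearts at 3 weeks. Its brighter probe set, 95082_at, gave 126.3 and 252.6 in FVB females and 221.0, 230.3 and 234.6 in FVB males. The transgenic arrays gave 415.2, 196.9 and 249.9 in females and 475.2, 430.5 and 564.1 in males. All 3 transgenic males lay above every FVB array, whereas 2 of the 3 transgenic females lay inside the FVB range. FVB hearts had a mean of 213 ± 49.8 (SD, n = 5), transgenic hearts one of 388.6 ± 139 (SD, n = 6), a log2 difference of 0.85 (95% interval 0.32 to 1.38, limma adjusted p = 0.0112). Without FVB female replicate 1, the lowest FVB array for this gene, the difference was 0.60 with an adjusted p of 0.081 and was not called.

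The second Igfbp3 probe set, 95083_at, was dimmer and more scattered. It ran from 21.7 to 184.4 on FVB arrays, from 29.3 to 256.4 in transgenic females and from 270.8 to 530.6 in transgenic males of 3 weeks. As with the brighter probe set, the males lay above the FVB arrays and the females overlapped them. Its log2 difference was 0.51 (SE 0.54, limma adjusted p = 0.460), and the mean over both probe sets gave 0.68 with an adjusted p of 0.128. In later transgenic hearts 95082_at gave 542.7, 431.4 and 218.5 at 13 weeks and 231.8, 329.9 and 273.1 at 40 weeks. The age changes were -0.39 (95% interval -1.10 to 0.32) and 0.011 (95% interval -0.70 to 0.72).

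Igfbp6, the binding protein with a preference for IGF2, had the widest range of the named members across groups. FVB females gave 266.1 and 321.1, and FVB males 395.9, 480.9 and 504.1. Transgenic hearts of 3 weeks gave 239.9, 377.2 and 233.2 in females and 69.5, 198.9 and 143.0 in males. The transgenic males lay below every FVB array, and the highest transgenic female lay within the FVB range. The mean fell from 393.6 ± 102 (SD, n = 5) in FVB to 210.3 ± 104 (SD, n = 6) in transgenic hearts, a log2 difference of -0.97 (95% interval -1.51 to -0.43, limma adjusted p = 0.0055). This call was made under all 30 alternatives tried, with differences of -1.14 to -0.76.

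Split by labelled sex, the Igfbp6 difference was -1.87 (SE 0.34, limma adjusted p = 0.0006) in males and -0.08 (SE 0.38, adjusted p = 0.888) in females. The test of the difference between the sexes gave 1.79 (SE 0.51, adjusted p = 0.153), which was not called. It was called at 1.92 (adjusted p = 0.0344) without FVB female replicate 3, where 1492 probe sets were called in all, against 0 with every array. The FVB females were then the 1 array that stood apart from all others, with its spread taken from the other groups. The FVB males include both arrays that carried Xist, and without those and FVB female replicate 1, which leaves 1 FVB array of each sex, the sex difference was 1.79 with an adjusted p of 0.568. None of the 6 members was called in this comparison, in which 0% of all probe sets were called, and 1 member and 1228 of 7453 probe sets had an unadjusted p under 0.05.

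In older transgenic hearts Igfbp6 signals were higher than at 3 weeks in the same sex. Males of 13 weeks gave 247.6, 270.0 and 367.7, all above the 3 younger males. Females of 40 weeks gave 491.0, 634.4 and 1005.1, all above the 3 younger females and 2 of them above every FVB array, all of which are of 3 weeks. The log2 differences were 1.21 (SE 0.34, 95% interval 0.49 to 1.93, limma adjusted p = 0.161) at 13 weeks and 1.30 (SE 0.34, 95% interval 0.58 to 2.02, adjusted p = 0.127) at 40 weeks. Neither was called in the main comparison. The change to 40 weeks was called without transgenic male replicate 1 of 3 weeks (adjusted p = 0.0456), which enters that comparison only through the shared variance and the set of probe sets tested. The Actb ratio was 1.39 to 1.77 in the older females and 1.25 to 1.44 in the younger ones, ranges that overlap at their edge. The 2 age changes differed by 0.085 (95% interval -0.93 to 1.10).

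By mean signal, Igfbp6 ran from transgenic males of 3 weeks (137.1 ± 64.9) through transgenic females of 3 weeks (283.4 ± 81.3), FVB females (293.6 ± 38.9, n = 2), transgenic males of 13 weeks (295.1 ± 63.9) and FVB males (460.3 ± 57) to transgenic females of 40 weeks (710.2 ± 265), with n = 3 where not given. The transgenic females of 3 weeks, the FVB females and the transgenic males of 13 weeks differed by less than their SDs, and the oldest females overlapped the FVB males.

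Igfbp2, a binding protein abundant in fetal tissues, was dim and was not among the probe sets tested. Its signal was 188.6 and 152.8 in FVB females and 118.1, 60.8 and 126.8 in FVB males. Transgenic hearts of 3 weeks gave 76.1, 58.2 and 71.9 in females and 71.3, 83.6 and 90.2 in males. Of the FVB arrays, 4 lay above every transgenic array of that age and FVB male replicate 2 lay at the low end of the transgenic range. In the fit without the filter, where 31.7% of 12422 probe sets were called, Igfbp2 differed by -0.78 on the log2 scale (SE 0.18, limma adjusted p = 0.0055). It was called under all 27 alternatives that gave it a value, some of which, as for Igfbp6, cannot move the difference. The difference in females minus that in males was -1.06 (95% interval -1.84 to -0.28, adjusted p = 0.187) and was not called. With the floor at the 40th percentile it was called at -0.51 (limma adjusted p = 0.0409). That floor lay above every transgenic Igfbp2 signal, so this value compares only FVB males with FVB females. The sex labels of the FVB males are in part in doubt. Without FVB female replicate 3, which leaves 1 FVB female array, the difference was -1.21. Later transgenic hearts gave 86.6 to 113.7 at 13 weeks and 76.5 to 88.8 at 40 weeks.

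Igfbp4, the inhibitory binding protein, was read by 3 probe sets. The brightest, 101571_g_at, gave 482.3 and 991.4 in FVB females and 843.6, 861.4 and 910.9 in FVB males. In transgenic hearts of 3 weeks it ran from 564.3 to 847.8, and at later ages from 569.0 to 851.4, so that every transgenic array lay within the FVB range. The low end of that range, 482.3, is FVB female replicate 1, the array that stood apart. The other FVB arrays lay at 843.6 to 991.4, which the transgenic arrays reached only at their upper end. The log2 difference of this probe set at 3 weeks was -0.11 (95% interval -0.47 to 0.25, limma adjusted p = 0.628). Without FVB female replicate 3 it was 0.15, a change of sign, and without FVB female replicate 1 it was -0.37 (adjusted p = 0.0548). Probe set 94222_at gave -0.55 (95% interval -1.08 to -0.017, adjusted p = 0.0836) and the dim 101570_at gave -0.19. None of the 3 was called.

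The probe set annotated to both Tmem119 and Igfbp5 showed the largest change of the 12. TMEM119 is a membrane protein known from osteoblasts and microglia, and IGFBP5 is a matrix-bound IGF carrier of fibroblasts and smooth muscle. Signals were 1731.8 and 1200.8 in FVB females and 1987.9, 2299.9 and 2164.3 in FVB males. Transgenic hearts of 3 weeks gave 4636.2, 3826.5 and 6103.6 in females and 5924.4, 4618.9 and 3920.8 in males, with no overlap. The mean rose from 1877 ± 434 (SD, n = 5) to 4838 ± 973 (SD, n = 6), a log2 difference of 1.44 (95% interval 1.03 to 1.84, limma adjusted p = 2e-05) or 2.70-fold.

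At 3 weeks the higher signal of this probe set was seen in both sexes. Transgenic arrays of later ages, which have no FVB arrays of their own age beside them, also lay above the FVB arrays of 3 weeks. The log2 difference at 3 weeks was 1.72 (SE 0.29, limma adjusted p = 0.0004) in females and 1.15 (SE 0.26, adjusted p = 0.0029) in males. It was called under all 30 alternatives, at 1.30 to 1.57, though some of these, as for Igfbp6, cannot move the difference. At 13 weeks the signals were 4665.1, 3323.8 and 3910.8, and at 40 weeks 3190.1, 4873.7 and 6204.4, so all 12 transgenic arrays lay above all 5 FVB arrays of 3 weeks. Changes with age were -0.27 (95% interval -0.82 to 0.27) and -0.056 (95% interval -0.60 to 0.49). The 4 transgenic groups, with means of 3967 to 4855, overlapped one another.

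**Figure D3:**
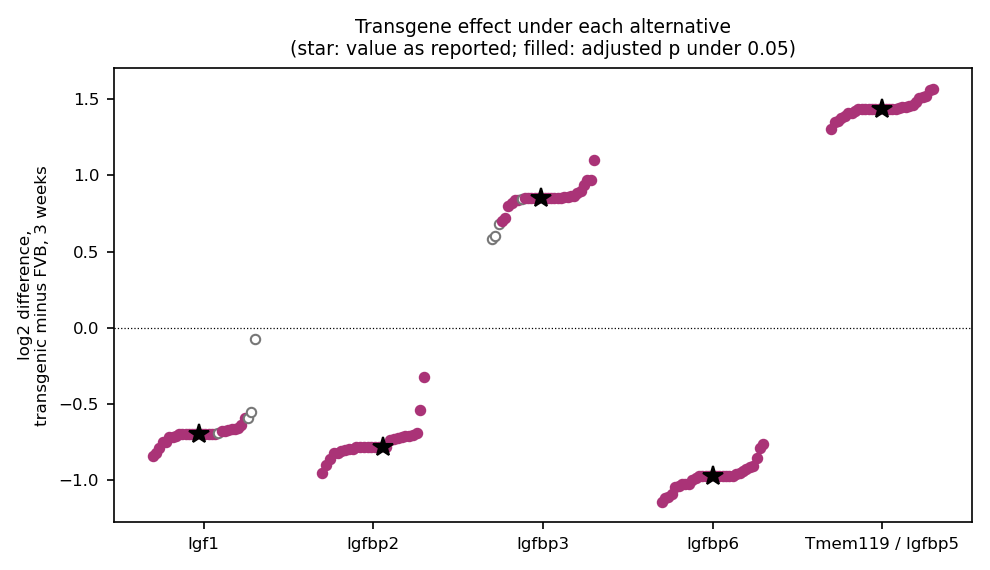
Log2 difference of transgenic minus FVB hearts at 3 weeks (y axis) for 4 genes and for the probe set of both symbols, under each alternative way of processing or choosing arrays, sorted by value. Stars are the values as reported, filled points have a limma adjusted p under 0.05 and open points do not; Igf1 and Igfbp3 have open points, with values as near to 0 as -0.08 and 0.58, while Igfbp6 and the probe set of both symbols have none.

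Within the labelled sexes at 3 weeks, the members' calls did not fall on the same genes. With every array, however, no member passed the test of the difference between sexes. The FVB males include the arrays whose sex label is in doubt. In females, where 34.7% of all probe sets were called, the Igf1 difference was -1.003 (SE 0.32, limma adjusted p = 0.0255) and that of Igfbp3 was 0.61 (SE 0.37, adjusted p = 0.212). In males, where 29.7% were called, the Igf1 difference was -0.39 (SE 0.29, adjusted p = 0.342) and that of Igfbp3 was 1.09 (SE 0.33, adjusted p = 0.0208). The sex differences of these effects were -0.61 (95% interval -1.53 to 0.31) for Igf1 and -0.48 (95% interval -1.54 to 0.58) for Igfbp3, both intervals holding 0.

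With age, no member was called in either transgenic series. At 13 weeks 0.523% and at 40 weeks 0.671% of all probe sets were called. An unadjusted p under 0.05 was reached by 1 of the 6 members, Igfbp6, in each. Of all probe sets tested, 8.61% reached it at 13 weeks and 9.1% at 40 weeks. The members' log2 differences ran from -0.39 for Igfbp3 to 1.21 for Igfbp6 at 13 weeks, and from -0.073 for Igf1r to 1.30 for Igfbp6 at 40 weeks. In the test of the difference between the age changes 0% of all probe sets and none of the 6 members were called by limma, with 214 probe sets and 0 members at an unadjusted p under 0.05. Age and sex cannot be told apart in that comparison.

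For each called member, 3 genes of most similar profile were found over the 6 group means, with likeness measured as the root mean square difference of centred log2 signal. For Igf1, whose group means spanned 1.01 log2 units, they were Tufm (0.037), Acp6 (0.046) and Rnf208 (0.046). For Igfbp3, spanning 1.45, they were Prkch (0.10), Gnai3 (0.12) and Uck2 (0.13). For Igfbp6, spanning 2.44, the nearest were Fmo1 (0.40), Ppp2r5d (0.41) and Mal (0.41), at a distance several times that found for the other members.

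Around the members, the rest of the IGF system was read from fixed gene lists, with the limma test at 3 weeks over all probe sets and its background of 46.6% called. Of the other ligands, receptors and carriers, 2 of 9 genes on the array were tested. Igfbp7, a low-affinity relative of the binding proteins found in vessel walls, rose by 0.82 (SE 0.17, adjusted p = 0.0013). Igf2, the fetal ligand, was at -0.46 (SE 0.22, limma adjusted p = 0.0965) and was not called. Its signal was 1711.9 and 4018.5 in FVB females and 4034.7 to 6035.8 in FVB males. Transgenic arrays of 3 weeks gave 1969.9 to 3836.1. The lower FVB female array lay below that range, and the other FVB arrays all lay above it.

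Upstream of Igf1 lies growth hormone signalling. Of 7 genes tested, 2 were higher and 1 was lower, with a median log2 difference of -0.20. Jak2, the kinase bound to the growth hormone receptor and to many cytokine receptors, rose by 1.46 (SE 0.17, adjusted p = 4.4e-06), and Socs3, an inhibitor of cytokine signalling, rose by 1.37 (SE 0.21, adjusted p = 6.4e-05). Cish, another inhibitor and a target of STAT5, fell by 0.63 (SE 0.14, adjusted p = 0.0021). The growth hormone receptor Ghr was at -0.34 (adjusted p = 0.160), Stat5a at -0.20 and Stat5b at -0.30, all uncalled. Among the genes listed with the proteases that cut binding proteins, 3 of 11 were tested, and Stc2, a stanniocalcin that inhibits such a protease, fell by 1.49 (SE 0.16, adjusted p = 1.9e-06).

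Downstream of the receptor, 10 adaptors and inhibitors were tested, of which 2 were higher, 0 lower and 8 uncalled, with a median of 0.0052. Ptpn1, a phosphatase that acts on the insulin and IGF1 receptors, rose by 1.49 (SE 0.18, adjusted p = 4.8e-06), and the adaptor Shc1 rose by 0.66 (SE 0.18, adjusted p = 0.0058). Of 18 PI3K, AKT and mTOR genes, 7 were lower and 1 was higher, with a median of -0.35 against -0.0065 over all probe sets. Tsc2 fell by 1.01 (SE 0.13, adjusted p = 1.2e-05), the transcription factor Foxo3 by 0.92 (SE 0.17, adjusted p = 0.0003) and the kinase Akt2 by 0.76 (SE 0.17, adjusted p = 0.0021). The exception was Inpp5d, a lipid phosphatase of blood cells, which rose by 2.19 (SE 0.31, adjusted p = 3.5e-05). The genes of this list that were lower thus include Akt2, which promotes the pathway, and Tsc2, which restrains it.

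**Figure D4:**
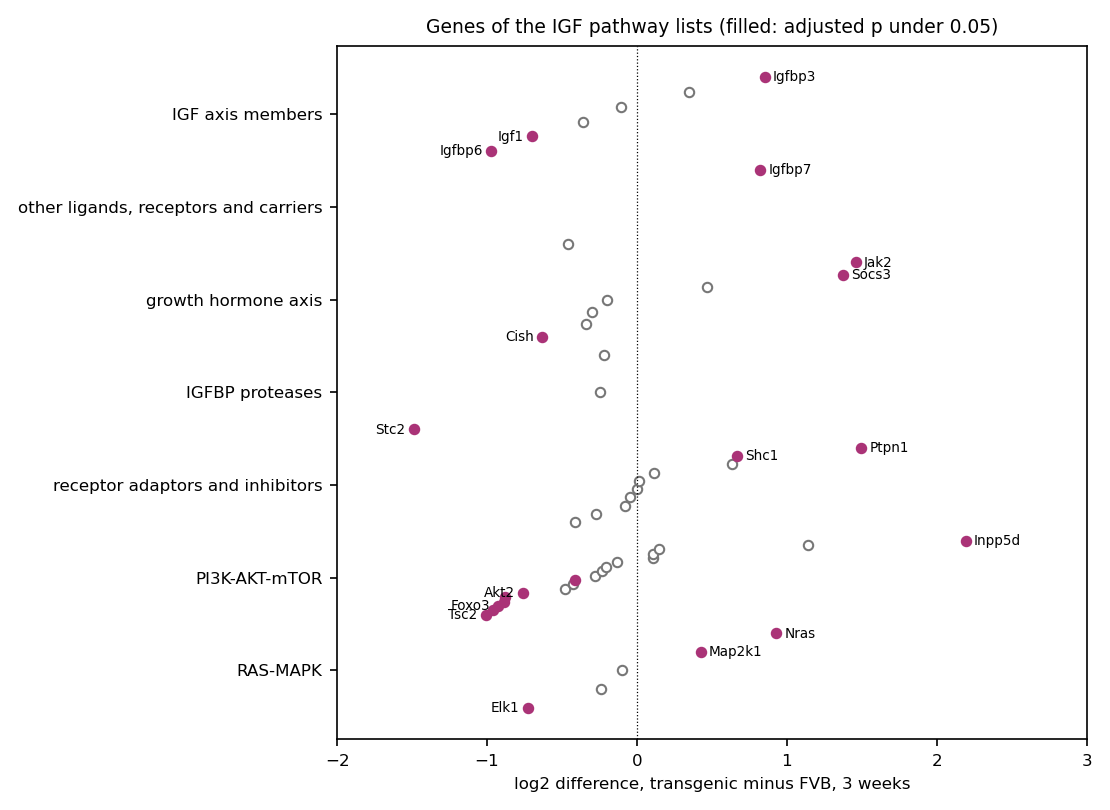
Log2 difference of transgenic minus FVB hearts at 3 weeks (x axis) for each tested gene of the IGF axis members and of 6 pathway lists, spread vertically within a list in order of value. Filled points have a limma adjusted p under 0.05, and names mark up to 4 called genes per list; the PI3K-AKT-mTOR list has 7 filled points left of 0 and 1 to the right.

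On the RAS and MAP kinase side 2 of 5 genes tested were higher and 1 was lower. Nras rose by 0.93 (SE 0.15, adjusted p = 9.8e-05). Map2k1 (0.42, adjusted p = 0.0403) and Elk1 (-0.73, adjusted p = 0.0454) were called near the threshold. Without FVB female replicate 1, Map2k1 was at 0.26 (adjusted p = 0.217) and Elk1 at -0.36 (adjusted p = 0.310). Leaving out any of several other arrays also ended each of these calls.

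With age, 1 gene of these pathway lists was called. Irs2, the adaptor between the IGF1 and insulin receptors and PI3K, was lower in transgenic females of 40 weeks than of 3 weeks, at 76.6 ± 28.3 against 295.5 ± 27.8 (SD, n = 3 each). This is a log2 difference of -2.02 (SE 0.42) with a limma adjusted p of 0.0329. The call was lost when any 1 of the 3 younger females, or replicate 2 or 3 of the older ones, was left out, with differences of -2.21 to -1.67 and adjusted p of 0.0644 to 0.188. It was also lost with no filter (-2.02, adjusted p = 0.0934). These are the females whose Actb ratios are given above for Igfbp6. Irs2 in transgenic males was 137.3 ± 17.2 at 3 weeks and 175.7 ± 56.3 at 13 weeks (SD, n = 3 each).

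These are whole hearts, in which fewer cells of a type and less RNA per cell cannot be told apart. The signals of cell type markers differed with the genotype. Of 14 macrophage markers tested at 3 weeks 12 were higher and 1 was lower, with a median log2 difference of 3.07. The summed signal of the 16 on the array was 4985.8 to 6725.6 on FVB arrays and 42132.3 to 56587.3 on transgenic arrays of 3 weeks. Of 11 cardiomyocyte markers 10 were lower and 1 was higher, with a median of -0.99 and sums of 208763.8 to 341795 and of 114749.9 to 221360.1. The sums of 15 fibroblast markers overlapped, at 31553.4 to 48756.7 and 34722.5 to 44581.5, with 5 of 14 tested higher and 4 lower. The part of these shifts in any difference reported here was not tested. This holds for the members, the probe set of Tmem119 and Igfbp5, and the pathway genes, Inpp5d among them.

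Markers of other cell types were read in the same way. Of 10 endothelial markers 1 was higher and 3 were lower, and of 6 smooth muscle and pericyte markers 2 were higher and 3 were lower. Liver, the main source of circulating IGF1, was represented by 5 markers, none of which was bright enough to be tested, with a summed signal of at most 675.6 on any array. That sum, taken without the floor, was 276.8 to 675.6 on FVB arrays and 120.8 to 199.8 on transgenic arrays of 3 weeks. These ranges did not overlap and differed in the direction of Igf1. Transgenic arrays gave 113.3 to 215.1 at 13 weeks and 151 to 279.7 at 40 weeks, the last reaching the FVB range. The part of these dim signals in the Igf1 difference was not tested. Of 10 skeletal muscle markers 3 were tested and all 3 were lower.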

How the data were processed

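The deposited table holds 1 probe set intensity (signal) per array, linear, for 18 Affymetrix U74Av2 arrays per the labels. The trimmed means of the arrays were nearly equal, from 494.4 to 496.7. The software behind the signals is not given in the sources used here. The number of arrays limits the precision. Identical columns were counted once, which left 17 arrays.

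A floor of 44.675 (25th percentile over the whole table) was applied before log2. After 66 control probe sets were removed, the 60% with the highest mean, 7453 of 12422, were tested two-sided with lmFit and eBayes of limma 3.58.1 (R 4.3.3). All 17 arrays entered 1 fit with a mean for each of 6 groups and 11 residual degrees of freedom. For the effect at 3 weeks the female and male differences were averaged. Benjamini-Hochberg adjustment ran over all 7453. Members below the filter come from a fit of all 12422.

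Symbols came from the platform annotation, in which 10833 probe sets have 1 symbol, 396 several and 1193 none; only those with 1 were named, apart from the set shared by Tmem119 and Igfbp5. A gene is represented by its brightest probe set. Named besides the members are up to 4 called genes of smallest p per pathway list and comparison, and the 3 most similar profiles for each called member. Igf2, Ghr, Stat5a and Stat5b lie outside this rule and were chosen after their values were seen. The members, lists and rules were chosen with earlier results of these data known.

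Promoter sequences came from RefSeq (GRCm38.p6), where all 8 genes matched, and no protein sequence was used here. The fit was tested on simulated data. The alternatives were other scalings, floors, filters, a pseudocount of 50, variance models, array weights, subsets of groups, the replicate number as a block, sex left out, both identical columns kept, the mean over probe sets, and leaving out each array. Leaving out 3 doubted FVB arrays was added after seeing the data. An array outside the groups compared enters a result only through the floor, the shared variance and the set of probe sets tested.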

Additional observations from a re-analysis of the deposited data

Results flagged for a closer look

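Over the 24 groups of arrays tested for a lone extreme value, 2 had one, and chance flags about 1 in 20 groups. The dim Igf1 probe set 95546_g_at stood at 180.6 in transgenic female replicate 2, above the other 5 transgenic arrays of 3 weeks at 102.8 to 128.8. The Igfbp3 probe set 95082_at stood at 126.3 in FVB female replicate 1, below the other 4 FVB arrays at 221.0 to 252.6. That FVB array is the one that fills 2 identical columns and stood apart from all others.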

How the results depend on the processing

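Over 34 reported gene results and their alternatives, 923 of 1004 values kept direction and side of the threshold, 49 lost the call, 9 gained it and 23 changed sign, of which 0 were called. At 3 weeks the members called fell from 3 to 1 under array weights, from 3 to 1 without the 3 doubted FVB arrays, and ranged from 1 to 3 over single arrays left out (1 without FVB female replicate 1). Igf1 and Igfbp3 lost their calls in each of these settings and under the mean over probe sets. Array weights gave -0.69 (adjusted p = 0.076) for Igf1 and 0.85 (0.0552) for Igfbp3, and the 3 arrays left out gave -0.59 (0.095) and 0.58 (0.181). Array weights could not be fitted for Igfbp2, since they did not converge on the table without a filter. Igf1r was called (0.37, adjusted p = 0.0456) with both identical columns kept. The cause was not tested.

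Probe sets called for the sex difference were 5 under quantile normalisation, 17 with a common median, 3 with the floor at the 40th percentile (beside Igfbp2, which is below the filter), 91 with no filter, 174 with both identical columns (1 member, Igfbp6, at 1.83), 1 without the 3 arrays, and 0 to 1492 with single arrays left out (0 to 1 member). A common median moved the median of all probe sets in that comparison from 0.037 to 0.39, and quantile normalisation to 0.14; Igfbp6 was then at 2.14 and 2.03. Counts at 13 weeks were 61 with the higher floor, 80 with array weights (1 member, Igfbp6, at 1.38), 63 without the 3 arrays and 14 to 74 with single arrays left out. Counts at 40 weeks were 78 with the higher floor (1 member, Igfbp6), 77 with no filter, 30 for the upper 40% of probe sets, 803 with array weights (1 member, Igfbp6, at 1.31) and 25 to 74 with single arrays left out (0 to 1 member). The difference between the age changes had 1 call under array weights.

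Sign changes lay near 0. The Igf1 change to 40 weeks was 0.0092 under quantile normalisation and 0.11 under array weights, and -0.15 to 0.19 with single arrays left out, and its change to 13 weeks was -0.33 to 0.20. The Igfbp3 change to 40 weeks was -0.041 under quantile normalisation, -0.068 with a common median and -0.23 to 0.31 over single arrays. For Igfbp6 the difference between the age changes was -0.074 under array weights and -0.25 to 0.51 over single arrays. Over single arrays left out, the Igfbp4 effect at 3 weeks ran from -0.37 to 0.15 (it was -0.40 without the 3 arrays), and the change of the probe set of both symbols at 40 weeks from -0.27 to 0.21.

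With the replicate number as a block, 3328 probe sets and 3 members were called at 3 weeks, and Igf1 was at -0.66. Deviations of same-numbered arrays had correlations of -0.34 to 0.47 over 40 pairs (median 0.054), of which 16 exceeded 0.1, against 22 of 80 differently numbered pairs (median 0.0083). The main fit did not pair the samples by number, since not every pair exceeded 0.1. That rule is strict and cannot decide whether same-numbered arrays were handled together, since a partial pairing would fail it too. Map2k1 and Elk1 were the pathway results whose calls the block ended, at 0.44 and -0.65.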
